A study of Rattus norvegicus with 18 samples.

Results

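Myh6, Myh7, Acta1, Actc1 and Atp2a2, the genes of the contractile isoforms and the calcium pump of heart muscle, were followed across 18 libraries of rat heart RNA. These 5 genes were taken by identifier from the 37262 genes listed. The identifiers were ENSRNOG00000025757 for Myh6, ENSRNOG00000016983 for Myh7, ENSRNOG00000017786 for Acta1, ENSRNOG00000008536 for Actc1 and ENSRNOG00000001285 for Atp2a2. The selection itself paired symbols with identifiers, since neither the files nor the gene table used here pair them. All 5 were listed, and each was above 1 FPKM in every library, so none was dropped. FPKM, a fragment number scaled to gene length and library size, is a level per gene length, which lets genes be set beside each other. The libraries came from rRNA-depleted heart RNA of 3 groups, 6 each. The groups were spontaneously hypertensive rats (SHR) given QDG, SHR given NS, and Wistar-Kyoto rats (WKY), a strain with normal blood pressure commonly used for comparison. The labels do not expand QDG or NS, give no age, sex, dose or heart chamber, and do not say whether WKY was given NS. If it was not, NS and strain cannot be told apart in the comparison of SHR with WKY. The labels also do not state that each library came from its own animal, and p-values therefore cover only spread among libraries, which may be technical.

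Heart muscle contracts when myosin motors in the thick filament pull on actin in the thin filament. Myh6 encodes alpha-myosin heavy chain, the fast motor that dominates the adult rodent ventricle. Myh7 encodes beta-myosin heavy chain, the slower motor of the fetal rodent ventricle. Actc1 encodes cardiac alpha-actin, the main sarcomeric actin of the adult heart, and Acta1 encodes skeletal alpha-actin, its close relative that is abundant in skeletal muscle and in the newborn rodent heart. Atp2a2 encodes the calcium pump SERCA2, which returns calcium to the sarcoplasmic reticulum and so relaxes the muscle. In rodents under pressure overload, raised Myh7 and Acta1 with lowered Myh6 and Atp2a2 is the textbook fetal gene programme.

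Sums of all FPKM lay between 598626 and 676288 per library, the number of reads behind them is unknown, and the labels name no batch. Pearson r on log2 values lay between 0.971 and 0.988 for library pairs, none of them identical. Among 17397 genes tested, WKY replicate 5 stood apart from its group in 685, SHR replicate 5 from its group in 448 and QDG replicate 4 in 446. The other libraries stood apart in 68 to 270 genes. The gene with the highest mean level held 13.5% ± 0.430 of the FPKM total in QDG-treated SHR, 13.5% ± 0.833 in SHR and 18.7% ± 2.17 in WKY (SD, n = 6 each). Since FPKM are relative to the library total, that gene moves with strain beside every level below, and its part in the results was tested only through other scalings. The ratios of 2 genes within a library do not depend on the total.

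The most abundant of the 5 was Actc1, at 7412 ± 578 FPKM in QDG-treated SHR, 7913 ± 367 in SHR and 6978 ± 565 in WKY (SD, n = 6 each). It ranked between 5 and 10 among all genes in every library. Myh6 followed at 4227 ± 356, 3830.1 ± 171 and 4389 ± 320 FPKM in QDG-treated SHR, SHR and WKY (SD, n = 6 each), and ranked between 12 and 20. Atp2a2 stood at 1773 ± 115, 1674 ± 59.0 and 1854 ± 111 FPKM in the same groups (SD, n = 6 each). These 3 are major transcripts of working heart muscle cells, though Atp2a2 is not confined to them, and were abundant in every library. Myh7 and Acta1 were lower and more variable. The coefficient of variation within a group was 15.6% to 24.7% for Myh7 and 23.2% to 35.97% for Acta1, against 3.53% to 8.42% for Myh6, Actc1 and Atp2a2. Acta1 ranked between 36 and 83 among all genes in QDG-treated SHR and between 27 and 56 in SHR, but between 245 and 571 in WKY. In bulk tissue, fewer cells of a type and less RNA per cell cannot be told apart.

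**Figure D1:**
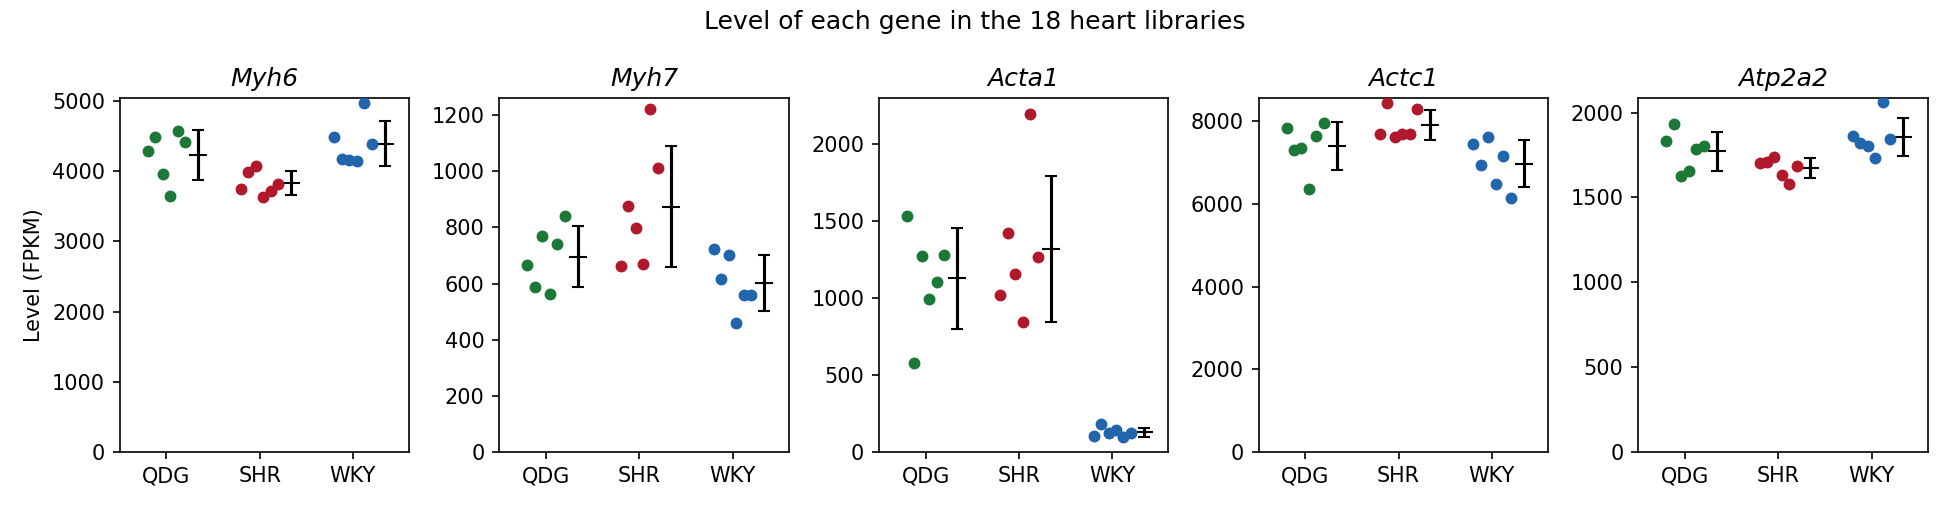
Level in FPKM (vertical axis, from 0) of each of the 5 genes in QDG-treated SHR (QDG), SHR and WKY; points are libraries and black marks the mean ± SD of 6. Acta1 lay between 577 and 2194 FPKM in all 12 SHR-strain libraries and at no more than 180 in WKY, while the other 4 genes differed far less.

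Acta1 showed the widest separation of the 5 between the strains. In SHR it was lowest at 843, with a median of 1211 and a highest value of 2194 FPKM, against 96.8, 122 and 180 FPKM in WKY. The 6 SHR libraries all lay above the 6 WKY libraries, with the lowest SHR value far above the highest WKY value. The log2 fold change was 3.31 (SE 0.24), a 9.92-fold difference with a 95% interval of 7.01 to 14.0 (limma adjusted p = 1.5e-08). It was the ninth largest of all 17397 genes tested by absolute fold change. The transcript was also higher in treated SHR, where it was lowest at 577, with a median of 1188 and a highest value of 1535 FPKM. Against WKY this was 8.53-fold (interval 6.03 to 12.1; log2 fold change 3.09, SE 0.24; limma adjusted p = 4.0e-08), and again the groups did not overlap. Of all genes tested, 12.5% had no overlap between SHR and WKY, and 10.4% had none between treated SHR and WKY. The 2 comparisons share the WKY libraries. Without SHR replicate 5, the highest library, the log2 fold change of SHR against WKY was 3.15 (limma adjusted p = 1.9e-08), and without WKY replicate 5 it was 3.24 (limma adjusted p = 1.4e-07).

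The cognate cardiac actin, Actc1, differed little. It was lowest at 7625, with a median of 7699 and a highest value of 8454 FPKM in SHR, against 6159, 7060 and 7629 FPKM in WKY. The ranges touched, since the highest WKY library lay just above the lowest SHR library. The log2 fold change was 0.18 (SE 0.07; 1.14-fold, interval 1.03 to 1.25; limma adjusted p = 0.0475), close to the threshold of 0.05. Under quantile normalization the direction turned, with a log2 fold change of -0.01. The call was lost when any SHR library was left out, or WKY replicate 2, 4 or 6, or QDG replicate 1, 2, 3, 5 or 6 (log2 fold change 0.15 to 0.19; limma adjusted p = 0.0519 to 0.122).

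The start regions of the actin pair are shown because these close relatives differed so widely in fold change between the strains. They are the 250 bases before the RefSeq transcription start in the assembly GRCr8, which comes from the BN strain and from neither strain of the study. Both lie on the minus strand, at chr19:68784195-68784444 for Acta1 and chr3:121271828-121272077 for Actc1. They are written 5′ to 3′, and capitals mark an exact CArG box, the site class bound by serum response factor, a regulator of muscle genes.
Acta1: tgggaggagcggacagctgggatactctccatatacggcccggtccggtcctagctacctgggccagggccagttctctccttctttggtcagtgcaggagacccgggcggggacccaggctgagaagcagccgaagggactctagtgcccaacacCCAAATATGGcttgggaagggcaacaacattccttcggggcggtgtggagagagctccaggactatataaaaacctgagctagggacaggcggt
Actc1: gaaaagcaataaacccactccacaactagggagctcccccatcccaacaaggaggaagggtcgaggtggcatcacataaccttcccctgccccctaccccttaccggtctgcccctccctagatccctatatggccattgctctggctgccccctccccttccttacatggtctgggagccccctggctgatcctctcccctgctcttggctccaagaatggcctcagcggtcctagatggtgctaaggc
Read on both strands, a CArG box stood in the Acta1 window, beginning 94 bases before the start, and in 1.497% of the 33469 promoters of this length. A TATAAA motif, which does not overlap it, began 29 bases before the start of Acta1 and was present in 12.9% of promoters. Neither motif had an exact match in the windows of Actc1, Myh6, Myh7 or Atp2a2, which says only that these letters are not in them. Inexact CArG-like sites, such as ccctatatgg in the Actc1 window and ccatatacgg in that of Acta1, were not counted. Whether any of these sites bears on the strain difference was not tested.

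The myosin pair moved in opposite directions between the strains. Myh7 was lowest at 664, with a median of 836 and a highest value of 1223 FPKM in SHR, against 458, 587 and 723 FPKM in WKY. The upper SHR libraries stood clear of WKY, but 2 SHR libraries, replicates 1 and 4, lay inside the WKY range. Its log2 fold change was 0.52 (SE 0.15; 1.43-fold, interval 1.15 to 1.77; limma adjusted p = 0.0149). Myh7 was called in each of the 29 alternative settings, with a log2 difference of 0.41 without SHR replicate 5 and of 0.50 without WKY replicate 5. Myh6 was lowest at 3627, with a median of 3785 and a highest value of 4074 FPKM in SHR, against 4145, 4277 and 4976 FPKM in WKY. The highest SHR library stayed below the lowest WKY library, by a narrow margin. The log2 fold change was -0.19 (SE 0.06; 0.874-fold, interval 0.797 to 0.958; limma adjusted p = 0.0306). The call was lost after median centring (log2 fold change -0.18, limma adjusted p = 0.0806). It was also lost without WKY replicate 1, 5 or 6 or SHR replicate 1, 4, 5 or 6 (log2 fold change -0.19 to -0.16; limma adjusted p = 0.0519 to 0.0657).

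Atp2a2, the calcium pump gene, was lowest at 1578, with a median of 1694 and a highest value of 1739.6 FPKM in SHR, against 1732, 1831 and 2062 FPKM in WKY. Only the highest SHR library, replicate 3, reached above the lowest WKY library. The log2 fold change of -0.15 (SE 0.05; 0.904-fold, interval 0.836 to 0.976) did not pass the threshold (limma adjusted p = 0.0519). It passed when the libraries were scaled to totals without the 10 most abundant genes (log2 fold change -0.16, limma adjusted p = 0.0222) and under quantile normalization (-0.17, limma adjusted p = 0.0421). It also passed without WKY replicate 4 or QDG replicate 2, 3 or 4 (limma adjusted p = 0.0362 to 0.0492).

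Between SHR and WKY, 4 of the 5 genes were thus called, 3 higher and 1 lower, where 24.8% of all genes tested were called, 12.2% as higher and 12.6% as lower. The groups did not overlap for 2 of the 5, Acta1 and Myh6, against 12.5% of all genes. The median log2 fold change of the 5 was 0.18, and that of all genes tested -0.01. The count of 4 became 2 after median centring, and also 2 without WKY replicate 6 or SHR replicate 1, 4, 5 or 6.

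**Figure D2:**
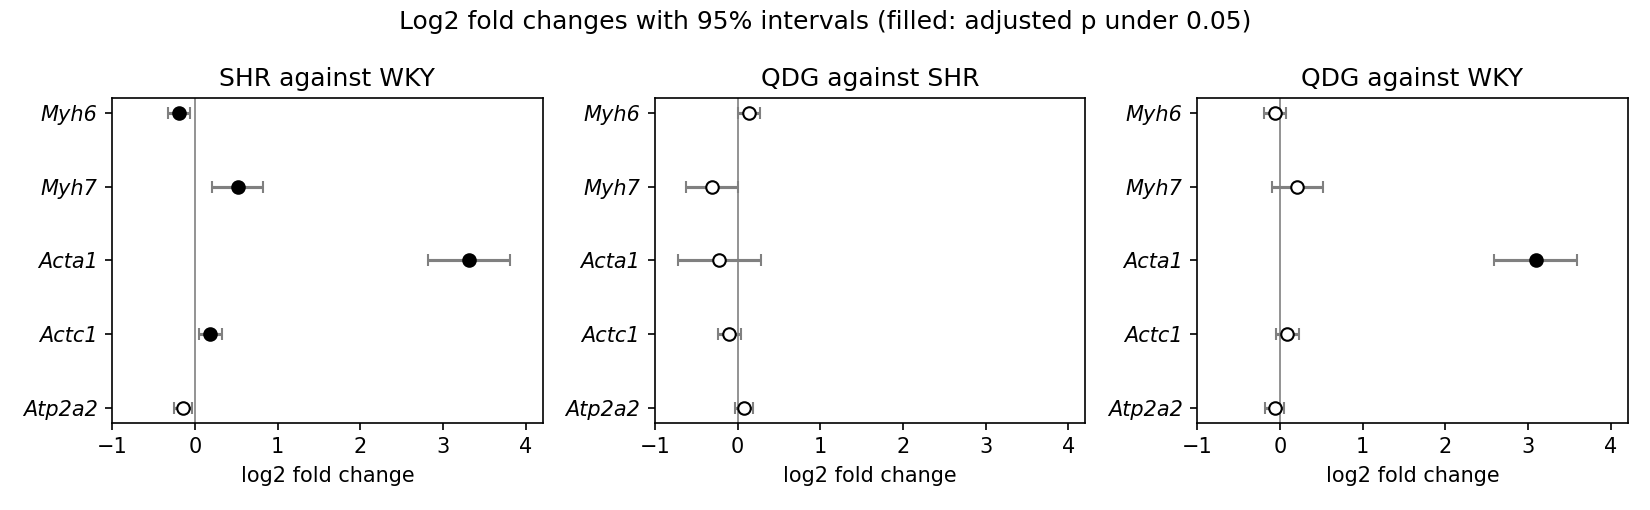
Log2 fold change on the log2(FPKM + 1) scale (horizontal axis) of the 5 genes in 3 comparisons, with 95% intervals from limma; filled points had an adjusted p under 0.05. Acta1 stood at 3.31 in SHR against WKY and 3.09 in QDG-treated SHR against WKY, and no gene was called between QDG-treated SHR and SHR.

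QDG treatment of SHR was the second comparison, and none of the 5 genes was called there (limma, 0 of 5; 0.293% of all genes). At an unadjusted p under 0.05 there was 1 of the 5, Myh6, where 10.4% of all genes fell. Myh6 was lowest at 3642, with a median of 4352 and a highest value of 4569 FPKM in treated SHR, against 3627, 3785 and 4074 FPKM in SHR. In 4 of the 6 treated libraries it lay above every SHR library, while replicates 3 and 4 lay inside the SHR range (log2 fold change 0.14, SE 0.06; limma unadjusted p = 0.0416, adjusted p = 0.448). Myh7 was lowest at 562, with a median of 704 and a highest value of 842 FPKM in treated SHR, against 664, 836 and 1223 FPKM in SHR (log2 fold change -0.31, SE 0.15; limma unadjusted p = 0.0502, adjusted p = 0.479). These groups overlapped.

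The interval of each treatment difference bounds what these libraries can show. It ran from 1.00 to 1.21-fold for Myh6, from 0.652 to 1.00-fold for Myh7, from 0.608 to 1.22-fold for Acta1, from 0.850 to 1.03-fold for Actc1 and from 0.979 to 1.14-fold for Atp2a2. The widest was that of Acta1, whose treated libraries ranged 2.66-fold and whose SHR libraries ranged 2.602-fold (log2 fold change -0.22, SE 0.24; limma adjusted p = 0.808). The log2 fold change of Actc1 was -0.10 (SE 0.07; limma adjusted p = 0.667) and that of Atp2a2 was 0.08 (SE 0.05; limma adjusted p = 0.653).

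Treated SHR were also set against WKY, where 20.9% of all genes and 1 of the 5, Acta1, were called. The log2 fold change was -0.06 for Myh6 (SE 0.06; limma adjusted p = 0.607), 0.21 for Myh7 (SE 0.15; limma adjusted p = 0.373), 0.09 for Actc1 (SE 0.07; limma adjusted p = 0.403) and -0.07 for Atp2a2 (SE 0.05; limma adjusted p = 0.447). For each of the 5 genes, Acta1 included, the treated mean lay between the means of SHR and WKY. The share of all genes for which this held was not computed. The treated and the NS-given SHR share the strain, and all 3 comparisons share libraries in pairs, so they are not independent.

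The ratio of Myh7 to Myh6 measures the balance of slow and fast myosin within one library. It was lowest at 0.131, with a median of 0.159 and a highest value of 0.194 in QDG-treated SHR. It was 0.177, 0.207 and 0.329 in SHR and 0.111, 0.138 and 0.168 in WKY. Every SHR library had a higher ratio than every WKY library, and the treated libraries reached into the ranges of both other groups. As a share of the pair, Myh7 took 14.1% ± 1.75 in QDG-treated SHR, 18.4% ± 3.75 in SHR and 12.1% ± 1.90 in WKY (SD, n = 6 each). The mean log2 ratio was 0.71 higher in SHR than in WKY, or 1.64-fold (two-sided exact permutation p = 0.00216, the smallest that 6 against 6 libraries can give; 0.00433 after Benjamini-Hochberg adjustment over 6 ratio tests). Without SHR replicate 5 the difference was 0.60, and without WKY replicate 5 it was 0.66 (exact permutation, adjusted p = 0.00866 in both).

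In QDG-treated SHR the Myh7 to Myh6 ratio was lower than in SHR. Neither gene passed alone, but genes were adjusted over 17397 limma tests and the ratio over 6 permutation tests. Before adjustment, the limma p was 0.0416 for Myh6 and 0.0502 for Myh7. The mean log2 ratio fell by 0.45, to 0.733-fold (two-sided exact permutation p = 0.0173, adjusted p = 0.0260). In 4 of the 6 treated libraries the ratio lay below every SHR library, and replicates 3 and 6 lay among the SHR libraries. The call was lost without QDG replicate 1, 2, 4 or 5, each of which leaves 5 against 6 libraries (difference -0.45 to -0.39; exact permutation, adjusted p = 0.0552 to 0.0617). Without SHR replicate 5, which had the highest ratio, the difference was -0.34 (exact permutation, adjusted p = 0.0455). Against WKY the treated ratio was 0.26 higher on the log2 scale, or 1.20-fold, a difference that did not pass (exact permutation p = 0.0887, adjusted p = 0.106).

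**Figure D3:**
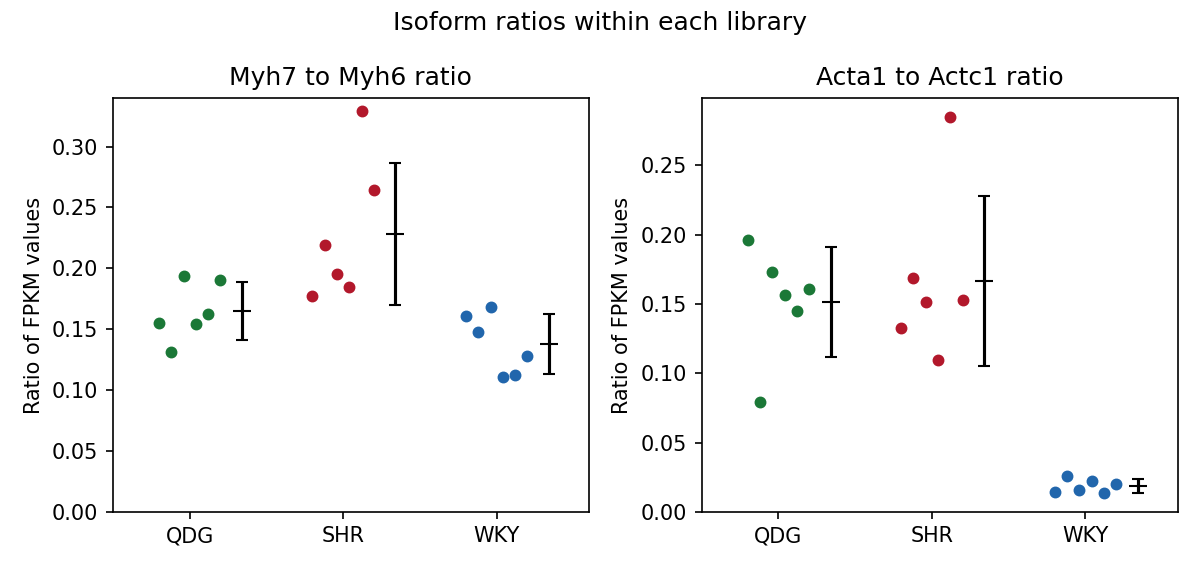
Ratio of Myh7 to Myh6 and of Acta1 to Actc1 in FPKM (vertical axes, from 0) within each library of QDG-treated SHR (QDG), SHR and WKY; points are libraries and black marks the mean ± SD of 6. The treated libraries had a mean myosin ratio of 0.165, between the means of SHR (0.228) and WKY (0.138), and overlapped both groups, whereas their actin ratio lay with SHR, far above the highest WKY value of 0.0258.

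The actin ratio separated both SHR groups from WKY. The Acta1 to Actc1 ratio was lowest at 0.0790, with a median of 0.159 and a highest value of 0.196 in QDG-treated SHR. It was 0.110, 0.152 and 0.285 in SHR and 0.0135, 0.0180 and 0.0258 in WKY. Both SHR groups stood wholly above WKY and overlapped each other. Acta1 thus made up 13.1% ± 3.09 of the pair in QDG-treated SHR, 14.1% ± 4.25 in SHR and 1.82% ± 0.469 in WKY (SD, n = 6 each). Against WKY the mean log2 ratio was 3.14 higher in SHR, or 8.79-fold, and 3.01 higher in QDG-treated SHR, or 8.08-fold (two-sided exact permutation p = 0.00216, adjusted p = 0.00433 in both). Between treated SHR and SHR it differed by -0.12 (exact permutation p = 0.669, adjusted p = 0.669). That sign turned without QDG replicate 2, the lowest treated library, to 0.06, and without SHR replicate 5 to 0.05. Whether treatment moved the myosin ratio more than the actin ratio was not tested.

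Between SHR and WKY the sum of each pair shifted less than its ratio. Myh6 and Myh7 together stood at 4922 ± 410 FPKM in QDG-treated SHR, 4703 ± 274 in SHR and 4991 ± 334 in WKY (SD, n = 6 each). Acta1 and Actc1 together stood at 8539 ± 785 FPKM in QDG-treated SHR, 9230.2 ± 623 in SHR and 7106 ± 556 in WKY (SD, n = 6 each). In SHR the means differed from WKY by 1189 FPKM for Acta1 and by 935 FPKM for Actc1. Reads that closely related genes share can be split between them by counting, and how many reads each pair shares was not tested. In the RefSeq table Myh6 and Myh7 are direct neighbours on chromosome 15, and Acta1 has 3 and Actc1 has 1 pseudogene by name. The labels do not say how shared reads were assigned, so the division within each pair is uncertain, and its sum may be too.

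Across libraries the 5 genes did not vary as a block. Myh6 and Atp2a2 varied together, with r = 0.91 over 18 libraries and 0.85 for deviations from the group means. Of 17396 other genes Atp2a2 was the closest to Myh6 by r, and Myh6 was the second closest to Atp2a2. Within groups r was 0.80 in QDG-treated SHR, 0.76 in SHR and 0.96 in WKY (n = 6 each). WKY replicate 5, highest of all 18 for both genes, took part in this: without it r was 0.87, and 0.79 for deviations. Among genes that are no members, ENSRNOG00000057988 was closest to Myh6 (r = 0.90, 0.82 for deviations) and averaged 178 ± 12.4 FPKM in QDG-treated SHR, 161 ± 9.77 in SHR and 190.1 ± 15.0 in WKY (SD, n = 6 each). Closest to Myh7 was ENSRNOG00000020075 (r = 0.85, 0.83 for deviations), at 101 ± 4.17 FPKM in QDG-treated SHR, 102 ± 8.25 in SHR and 92.1 ± 5.18 in WKY (SD, n = 6 each). These r values share library totals and are given as a description.

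**Figure D4:**
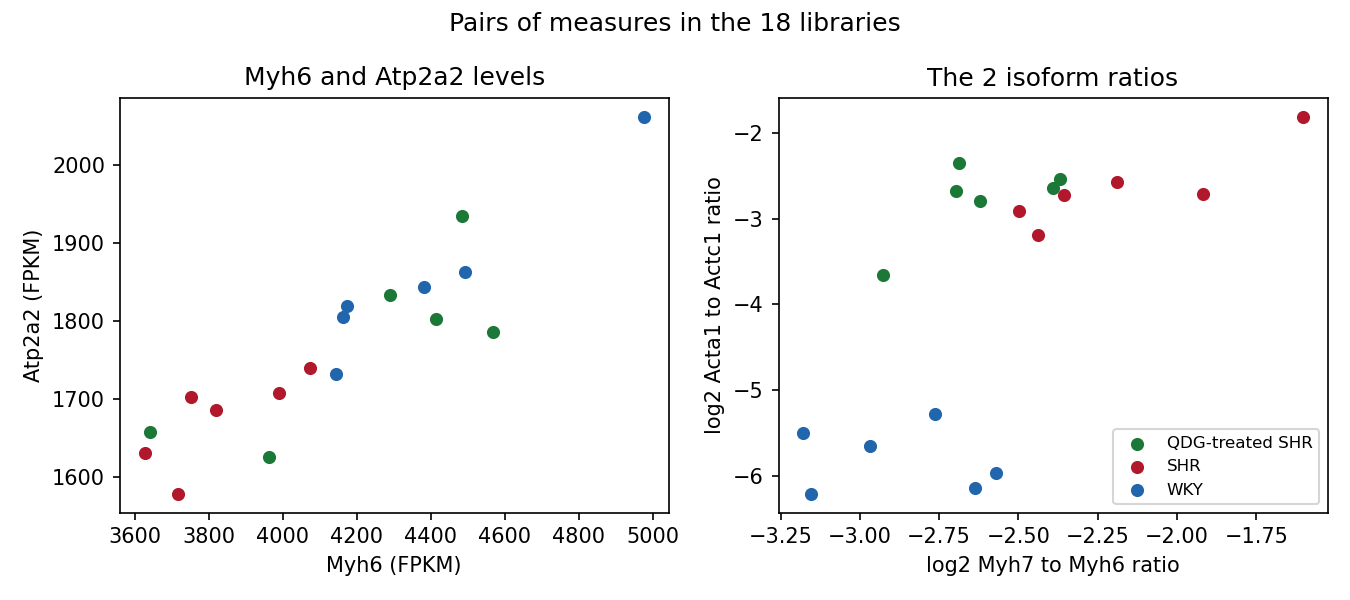
Left, Myh6 level (horizontal axis) and Atp2a2 level (vertical axis) in FPKM; right, log2 Myh7 to Myh6 ratio (horizontal axis) and log2 Acta1 to Actc1 ratio (vertical axis); each point is 1 of 18 libraries, coloured by group. Myh6 and Atp2a2 varied together over the libraries (r = 0.91), while WKY was separate from both SHR groups in the actin ratio and overlapped QDG-treated SHR in the myosin ratio.

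Myh7 had r = 0.74 with Actc1 (0.56 for deviations) and r = 0.63 with Acta1 (0.55 for deviations) over 18 libraries. Which of the actins was nearer by r differed among the groups, and this difference was not tested. With Actc1, r was 0.74 in QDG-treated SHR, 0.31 in SHR and 0.76 in WKY, and with Acta1 it was 0.58, 0.92 and -0.24 in the same groups (n = 6 each). For deviations, the order turned without some libraries, such as WKY replicate 4 (r = 0.52 with Actc1 and 0.65 with Acta1). Without SHR replicate 5 the order was kept and the gap widened, with 0.73 for Actc1 and 0.37 for Acta1. With Myh6, r was -0.33 over all libraries and 0.17 for deviations. Whether libraries with a higher myosin ratio also had a higher actin ratio was tested within each group. In SHR, r was 0.88 (exact permutation p = 0.0389; rho = 0.89, exact permutation p = 0.0333), which did not pass after adjustment over 6 relations (adjusted p = 0.233). Without the 2 libraries farthest from the median it was 0.78. SHR replicate 5 had the highest value of both ratios in its group. In QDG-treated SHR, r was 0.68 (exact permutation p = 0.169, adjusted p = 0.346; rho = 0.54, exact permutation p = 0.297) and turned to -0.23 without the 2 farthest libraries, on which it rests. In WKY, r was -0.13 (exact permutation p = 0.811, adjusted p = 0.811; rho = -0.14, exact permutation p = 0.803), and 0.25 without the 2 farthest.

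Of the relation between the myosin ratio and the Atp2a2 level, no group gave a p under the threshold. In QDG-treated SHR, r was -0.62 (exact permutation p = 0.200, adjusted p = 0.346; rho = -0.60, exact permutation p = 0.242), turning to 0.35 without the 2 farthest libraries. In SHR, r was -0.61 (exact permutation p = 0.231, adjusted p = 0.346; rho = -0.37, exact permutation p = 0.497), turning to 0.35. In WKY, r was -0.23 (exact permutation p = 0.744, adjusted p = 0.811; rho = 0.03, exact permutation p = 1), and -0.75 without the 2 farthest.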

How the data were processed

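RNA was measured in 18 rat heart libraries, rRNA-depleted and built with an NEB kit, per the labels' protocols. The deposited values were taken as FPKM, scaled by the authors to gene length and library size. Their unit is not stated: values that are not whole and unequal library sums point to it. Of tools, limma is named in the submitters' processing notes, with no version. For aligner, counter and build nothing was given in the sources used here.

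The 17397 genes reaching 1 FPKM in 6 or more libraries entered limma 3.58.1 (R 4.3.3) on the log2(FPKM + 1) scale (intensity trend, robust moderation, a mean per group over 18 libraries, two-sided, Benjamini-Hochberg over all genes tested, threshold 0.05), after checks on simulated data. Log2 ratios were compared by exact permutation in Python 3.11.15 (scipy 1.17.1). A library stood apart where its gap to the nearest, over the group's range, was above 0.625. Members and gene lists were chosen with earlier results of these data known. Named genes were the 5 members and the genes closest to Myh6 and Myh7. Lists of other sarcomere, calcium handling and cell type genes were not used, because the reference pairs 0 Ensembl identifiers with symbols. In log2 deviations from each gene's group mean, same-numbered libraries correlated at -0.06 to 0.19. The main tests did not pair libraries by number. Alternatives were other scalings, filters, pseudocounts, weights and left-out libraries.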

Additional observations from a re-analysis of the deposited data

Results flagged for a closer look

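In 1 of 21 groups of 6 values (5 levels and 2 ratios in 3 groups) a library stood apart from the other 5, where chance gives about 1 in 20. The Acta1 to Actc1 ratio was 0.285 in SHR replicate 5, against at most 0.169 in the other SHR libraries. The same library had the highest Myh7 level of all 18, at 1223 FPKM, and the highest Acta1 level, at 2194 FPKM. It stood apart from the other SHR libraries in 448 of all genes tested, and the part of this in its actin ratio was not tested.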

How the results depend on the processing

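Of 618 recomputed values, 566 kept their direction and their side of the threshold (for a count, stayed within 1.5 times). Some could hardly change, since leaving out a WKY library does not alter the log2 fold change of QDG-treated SHR against SHR. For SHR against WKY, Actc1 lost its call in 18 of 29 settings, and in 1 more it turned direction and was not called either. Atp2a2 gained a call in 11 of 29, and Myh6 lost its call in 8 of 29. For SHR against WKY, Myh7, Acta1 and both ratios kept their calls in every setting run. Median centring took Myh6 to -0.18 and Actc1 to 0.20, with neither still called, and left 2 of the 5 genes called. Actc1 lost its call with no filter on low values (0.18, limma adjusted p = 0.0543), with the 12 compared libraries alone (0.18, limma adjusted p = 0.0600) and after scaling without the 10 most abundant genes (0.17). Quantile normalization turned Actc1 to -0.0146 against WKY in SHR and to -0.0357 in QDG-treated SHR. Atp2a2 gained a call under quantile normalization (-0.17), scaling without the 10 most abundant genes (-0.16), no trend, a filter at 5 FPKM and pseudocounts of 0.1 and 0.01 (each -0.15; limma adjusted p = 0.0473 to 0.0499). The cause was not tested. The Acta1 to Actc1 ratio of QDG-treated SHR against SHR turned to 0.0603 as a difference in medians and to 0.0556 without QDG replicate 2.

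With 1 library left out in turn, the SHR against WKY log2 fold change ran from -0.21 to -0.16 for Myh6, 0.15 to 0.21 for Actc1 and -0.17 to -0.12 for Atp2a2, and 2 to 5 of the 5 genes were called. The log2 ratio of QDG-treated SHR against SHR ran from -0.51 to -0.34 for Myh7 to Myh6 and from -0.23 to 0.06 for Acta1 to Actc1. The 51 of all genes called between QDG-treated SHR and SHR were 104 under sample weights, 79 under quantile normalization, 77 under median centring, 30 with no filter and 28 to 69 with a library left out, and 0 of the 5 members were among them in each.

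Same-numbered libraries correlated at -0.05 to 0.16 (SHR and WKY), -0.06 to 0.13 (QDG and SHR) and -0.04 to 0.19 (QDG and WKY). These are r of log2 deviations from each gene's group mean. Replicate 5 had the highest of these values in each comparison (0.16, 0.13 and 0.19). By the same measure, the closest library of another group had the same number for 5 of 18. The number that chance alone would give was not worked out. Whether libraries of the same number share anything was not tested. A replicate block called 5 of the 5 for SHR against WKY, adding Atp2a2 (-0.15, limma adjusted p = 0.0457), 0 for QDG-treated SHR against SHR and 1 for QDG-treated SHR against WKY. With the block, by sign flips, the Myh7 to Myh6 ratio differed by -0.45 between QDG-treated SHR and SHR (exact permutation, adjusted p = 0.0469). The treated ratio was lower in every same-numbered pair, so the p before adjustment was the smallest that these flips can give. Both ratios of SHR against WKY and the actin ratio of QDG-treated SHR against WKY had the same adjusted p. Depth is unknown, so counting error could not be given.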

Other observations

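Closest to Acta1 over the 18 libraries was ENSRNOG00000042897, an identifier picked after its values were seen (r = 0.98, 0.67 for deviations from group means). It averaged 18.6 ± 3.995 FPKM in QDG-treated SHR, 20.9 ± 3.16 in SHR and 4.57 ± 0.443 in WKY (SD, n = 6 each). Closest to Atp2a2 was ENSRNOG00000011849, picked in the same way (r = 0.91, 0.95 for deviations), at 324 ± 22.2 FPKM in QDG-treated SHR, 320.1 ± 13.5 in SHR and 360 ± 19.2 in WKY (SD, n = 6 each).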
